A study of Mus musculus with 16 samples.

Results

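Coding genes with introns in their 3′ untranslated regions (UTRs) were defined from the gene annotation that the authors deposited with this series. For each protein-coding Ensembl gene on chromosomes 1 to 19, the transcript with a start codon, a stop codon and the longest coding sequence (CDS) was taken. A gene was a member where at least 1 exon junction of that transcript lay 55 or more spliced bases downstream of the stop codon. The rule found 177 members among 20341 eligible coding genes, or 0.870% (Wilson 95% interval 0.751% to 1.01%), in an annotation of 50578 gene models.

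The series is of mouse bone marrow-derived macrophages grown for 7 days in 50 ng/ml of the growth factor M-CSF, with or without lipopolysaccharide (LPS), a component of bacterial outer membranes that activates macrophages. It holds 3 LPS and 3 untreated RNA-seq libraries of WT C57BL/6 cells. It also holds RiboTag libraries of LysM-Cre x RiboTag cells, with 2 libraries untreated, 2 after 6 h of LPS and 2 after 24 h of LPS, and 2 LPS and 2 untreated ribosome profiling libraries of WT C57BL/6 cells whose titles name CHX. In RiboTag cells a tagged ribosomal protein is switched on by Cre, here under the LysM promoter of myeloid cells, and mRNA is recovered with the tagged ribosomes. The labels do not say for each RNA-seq or ribosome profiling library which LPS time it had, nor which libraries came from separate animals. The annotation carries positions and labels of gene models and no value per library, so LPS and untreated cells were not compared here, and every number below describes gene models on the build mm10.

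During splicing an exon junction complex is left on the mRNA a short way upstream of each exon junction. A ribosome in its first round of translation removes the complexes in its path, and one that stays behind, well downstream of the stop codon, can recruit the UPF proteins and start nonsense-mediated decay (NMD). Most mammalian coding genes therefore end their coding sequence in the last exon or close to its start, and a normal stop codon followed by a 3′ UTR intron is a known but uncommon feature of natural NMD targets such as Arc.

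No genome sequence was used here. Letters were read only where a splice site of a 3′ UTR intron fell inside a RefSeq promoter window (build GRCm38.p6), which was so for 8 of 880 splice sites. Sites of 5 members are shown as examples. Each window holds 10 exon bases and 20 intron bases, 5′ to 3′ on the gene's strand, and the capitals mark the bases of the intron at the splice site. The 2 Clec18a sites shown belong to different introns. The acceptor is that of the junction 144 bases after the stop, and the donor that of the next junction, at 282 bases. Both lay in a RefSeq window of Gm38523.
Dexi donor, chr16:10518609-10518638, minus strand: ggcataactgGTaagttccaagccagagag
Clec18a donor, chr8:111065110-111065139, minus strand: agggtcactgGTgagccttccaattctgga
Clec18a acceptor, chr8:111065258-111065287, minus strand: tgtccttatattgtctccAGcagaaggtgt
Trex1 acceptor, chr9:109059899-109059928, minus strand: ccctcttccttttggctcAGaggctgccct
Lim2 acceptor, chr7:43429944-43429973, plus strand: ccctttgtcccctgcttcAGcaaattccat
Gm21969 acceptor, chr4:139653515-139653544, plus strand: gtgaccggctccacaatgAGgctgggcatc

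All 3 donors read from members' 3′ UTR introns began with GT and all 5 acceptors ended with AG. Among all other introns of eligible genes that the same windows cover, 1634 of 1655 donors (98.7%) and 792 of 801 acceptors (98.9%) did so. Since nearly all annotated introns read here have these letters, the few sites of members cannot tell whether their introns are spliced. The Gm21969 acceptor lay in the RefSeq start window of Tas1r2, a taste receptor gene downstream, and the Trex1 acceptor in the window that RefSeq gives under the symbol Trex1, which the member shares with another gene model. The Lim2 acceptor lay in a window under the symbol Lim2, which the member shares with other Ensembl coding gene models. Some further 3′ UTR introns of the Lim2 member were coding introns of a gene model with that symbol.

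The same introns also hold small RNA genes, and 2 of 5 miRNA genes found there had mature sequences in the RefSeq table. They are shown because their 3′ ends coincide with a splice site. The capitals mark the seed, bases 2 to 8.
mmu-miR-6912-5p, in Adat3, chr10:80609265-80609286: uACAGGGAgggugcucaggcag
mmu-miR-6912-3p, in Adat3, chr10:80609305-80609329: cUACCUGAgggucuccuuccugcag
mmu-miR-7020-5p, in Gm21969, chr4:139644047-139644070: uGGGAUGGuggagagggugaccag
mmu-miR-7020-3p, in Gm21969, chr4:139644091-139644111: aACCCCUCucuucucucccag

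The Mir6912 gene ended 0 bases before the end of the first Adat3 3′ UTR intron, which is 479 bases long and spans 80608851 to 80609329. The Mir7020 gene likewise ended 0 bases before the end of the thirteenth Gm21969 3′ UTR intron, of 569 bases. Both mature 3p forms therefore finish with the ag of the acceptor site, and both introns are at the same time coding introns of a downstream gene, Scamp4 for Adat3 and Aldh4a1 for Gm21969.

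The number of genes with a last junction behind the stop codon fell steeply with distance. Of the 20341 eligible genes, 2243 (11.0%) had a single exon, and in 17199 (84.6%) the last junction lay upstream of or within the stop codon. Another 722 (3.55%) had their last junction 0 to 54 bases after the stop, which leaves the 177 members. Counted per 10 bases from the stop codon on, 246, 165, 141, 108 and 55 genes had their last junction in the first 50 bases. From there on the counts were 18 genes at 50 to 59 bases, 15 at 60 to 69, 5 at 70 to 79 and 4 in each of the next bins. On the other side of the stop codon, 1657 genes had the last junction in the 50 bases upstream and 2724 in the 50 bases before those. An intron before the start codon was present in 6382 eligible genes (31.4%).

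**Figure D1:**
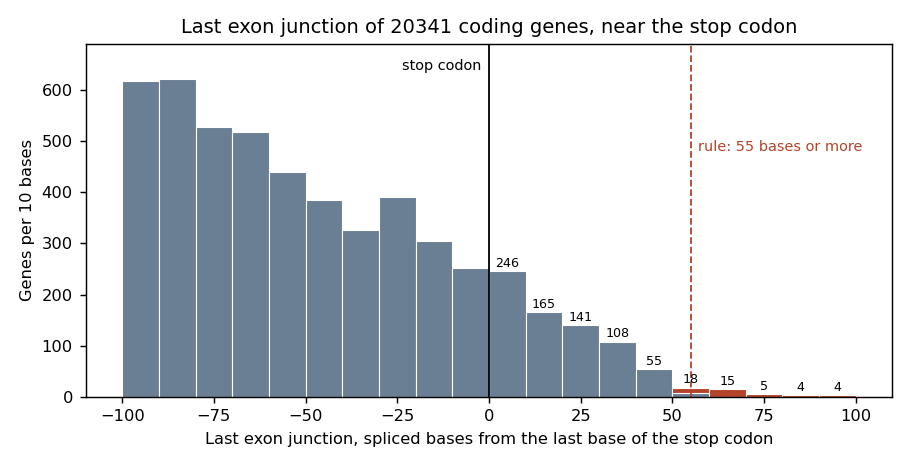
Number of eligible genes (vertical axis, genes per 10 bases) by the position of the last exon junction of the chosen transcript (horizontal axis, spliced bases from the last base of the stop codon, from 100 bases upstream to 100 bases downstream). Red bars are members, grey-blue bars are other eligible genes, and the dashed line is the rule. The bar labels give 246 genes in the first 10 bases after the stop and 4 in the tenth.

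At the edge of the rule stood Eif2d (a factor of non-canonical translation initiation) and Tbrg4, both with the last junction at 55 bases, and Mroh8 at 56 bases. Just outside it were Tti2 at 54 bases, Cd247 (the zeta chain of the T cell receptor complex) at 52 and Gm10941 at 52. In all, 7 genes had the last junction at 50 to 54 bases and 11 at 55 to 59.

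The annotators' own label set most members apart. The chosen transcript carried the label nonsense_mediated_decay in 114 of 177 members (64.4%), against 1 of 20164 other eligible genes (0.00496%), which was S100a6 with its last junction at 51 bases. By convention annotators give this label from the distance between stop codon and last junction, so it is no independent record of decay. The other 63 members (35.6%) met the same distance and were labelled protein_coding. Source differed with the label: 112 of 114 NMD-labelled members rested on the manual HAVANA annotation alone, against 10 of 63 protein_coding-labelled members. Only 99 members (55.9%) had an identifier of the consensus coding sequence project (CCDS), against 17808 other eligible genes (88.3%). Among members it was 54 of 114 with the NMD label (47.4%) and 45 of 63 with the protein_coding label (71.4%). Transcript support level 1, the best, was given to 97 members (54.8%), against 14689 other eligible genes (72.8%).

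Members were more often built on short or single-exon coding sequences than other genes. At most 100 codons were found in 24 members (13.6%, interval 9.28% to 19.4%), against 551 other eligible genes (2.73%, 2.52% to 2.97%). The whole coding sequence lay in 1 exon in 25 members (14.1%), against 878 of 17921 other eligible genes with 2 or more exons (4.90%). In the protein_coding-labelled members that share was 21 of 63 (33.3%), and in the NMD-labelled members 4 of 114 (3.51%). The intervals cover counting only, and genes are not replicates, so no test was run between classes of genes.

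**Figure D2:**
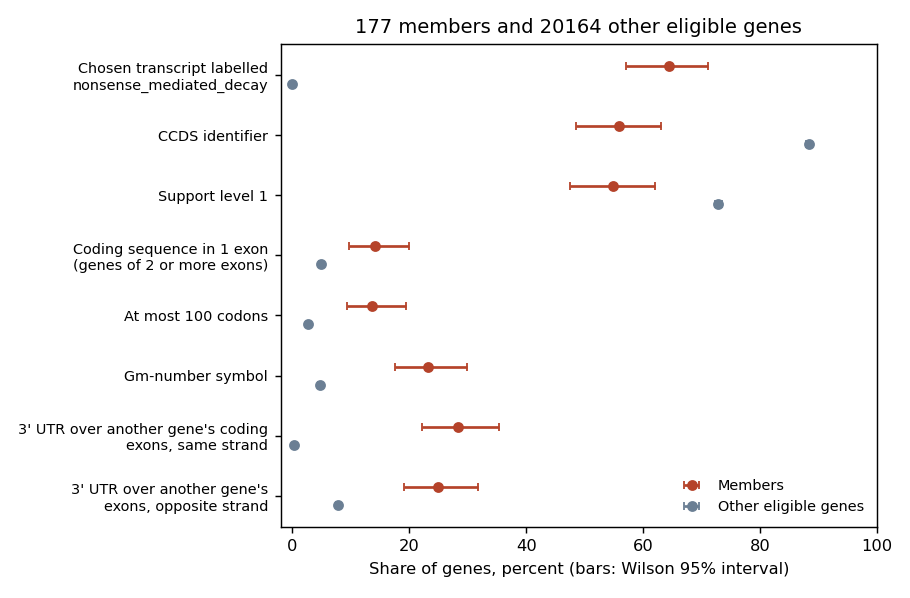
Share of genes (horizontal axis, percent) with each property (vertical axis), for the 177 members (red) and the 20164 other eligible genes (grey-blue), with Wilson 95% intervals as bars. Members lie to the right for every property but the CCDS identifier (55.9% against 88.3%) and support level 1 (54.8% against 72.8%).

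How firmly the junction belongs to the gene was read from the other complete transcripts. In 83 members (46.9%) every complete transcript had a junction 55 or more bases after its stop, though 64 of these have only 1 complete transcript and 19 have 2 or more. In 71 members (40.1%) another complete transcript ended at the same stop codon without such a junction. In the other 23 (13.0%) the transcripts without it used another stop codon.

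In 41 members every complete transcript had such a junction, and the exons behind it in the chosen transcript touched no exon of another Ensembl gene on the same strand. Of these, 37 carried the protein_coding label, 23 had a CCDS identifier, 35 had a single 3′ UTR junction, and in 16 (39.0%) the coding sequence lay in 1 exon. In 28 of the 41 (68.3%) there was only 1 complete transcript, so the first condition asked little of them. In 18 of the 41 the single junction lay at most 100 bases after the stop. Arc was the sole member found on any of the 12 gene lists used. It is a neuronal immediate early gene whose protein acts at synapses, and its chosen transcript spans chromosome 15, 74669083 to 74672568, minus strand. Its 396 codons sit in 1 exon, with the stop codon at 74671182 to 74671184. Its 2 junctions lay 617 and 757 bases after the stop, over introns of 245 and 186 bases, and in its 2 complete transcripts the last junction lay 754 and 757 bases after the stop.

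The other members described from these 41, and in the next paragraphs up to the genes with the most junctions, were picked for what they are known to do after their values were seen. Nod2, the cytosolic sensor of bacterial muramyl dipeptide (chromosome 8, 88647315 to 88688474, plus strand), had no CCDS identifier on its chosen transcript. It had 1035 codons and 1 junction 593 bases after the stop, over an intron of 264 bases, and all 3 of its complete transcripts had a junction past the threshold. H2-M3, an MHC class I molecule that presents formylated peptides (chromosome 17, 37270220 to 37274484, plus strand), had its junction at 69 bases over an intron of 256 bases. Hrk, a BH3-only activator of apoptosis, had 92 codons in 1 exon and a junction at 67 bases over an intron of 14349 bases. Phlda3, a p53-induced inhibitor of AKT signalling, had 125 codons in 1 exon and a junction at 68 bases over an intron of 1583 bases. Of these 4 genes, Nod2 alone had its junction far from the threshold of 55 bases.

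Further genes picked from the same set had junctions near the threshold or far from it. Rps6ka4, a kinase downstream of MAP kinases, had its junction at 75 bases over an intron of 125 bases, and Cblc, an E3 ubiquitin ligase of the Cbl family, at 65 bases over an intron of 976 bases. Bsn, which encodes the presynaptic scaffold Bassoon, had the longest coding sequence of any member, at 3942 codons, and its junction at 107 bases. Marveld1 had the junction farthest from the stop within this set, at 1389 bases. It was followed by Slc26a6, whose symbol names an anion exchanger, with 11 junctions up to 1049 bases. That model is an NMD-labelled transcript of 239 codons with no CCDS identifier, and another Ensembl coding gene carries the same symbol. Next were 4933408J17Rik at 1014 bases and Primpol, the primase-polymerase that restarts stalled replication, at 905 bases. Dexi, whose donor site is printed above, held 4 junctions between 131 and 501 bases after the stop of a coding sequence of 95 codons, over introns of up to 23104 bases. The small mitochondrial protein gene 1500011K16Rik, later named Mtln, had 56 codons in 1 exon and a junction at 163 bases over an intron of 301 bases.

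**Figure D3:**
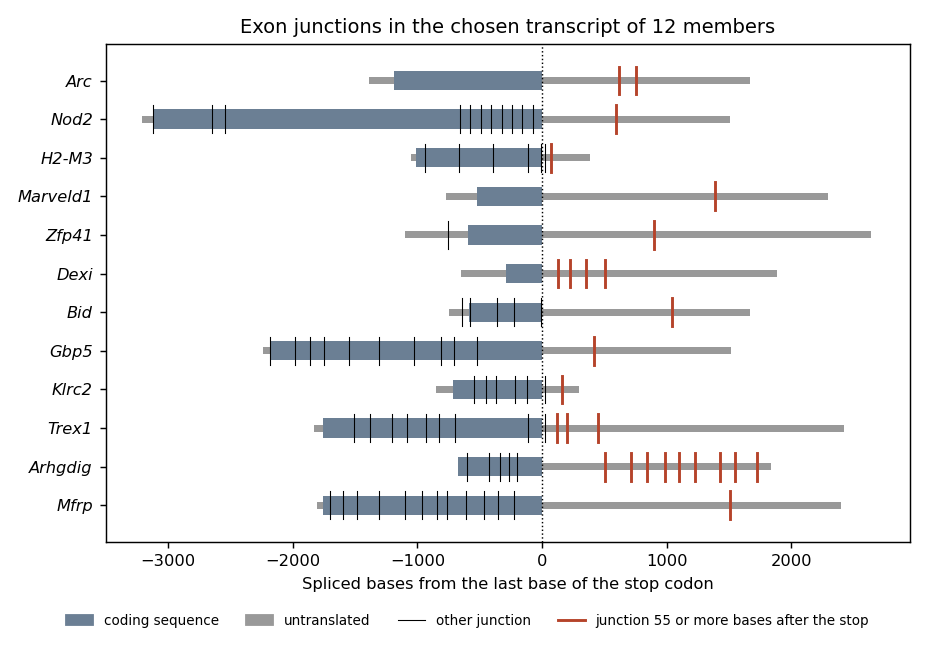
Spliced transcripts of 12 members, chosen after their values were seen, aligned at the stop codon (horizontal axis, spliced bases from the last base of the stop codon); thick blue bars are coding sequence, thin grey bars untranslated, black ticks other junctions and red ticks junctions 55 or more bases after the stop. Arc has its 2 red ticks at 617 and 757 bases and Arhgdig its 9 between 504 and 1727 bases.

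Members with a same-stop alternative kept the same protein end with or without the 3′ UTR intron. In 69 of the 71 an alternative had the identical coding sequence, and the transcript with the junction was taken as the longer one by the rule for ties. At the first 3′ UTR intron, 38 of the 71 (53.5%) had only alternatives that ended before the intron, 27 (38.0%) had one that ended inside it, and 2 (2.82%) had one in which the intron was left unspliced. The remaining 4 fell in none of these classes. The unspliced pair were short introns, of 36 bases in Lpar2 (a lysophosphatidic acid receptor) and 128 bases in the other gene, Sema4g. The gap of 36 bases was the shortest 3′ UTR intron of any member.

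Some same-stop members were picked for description with no list behind them. Bid, a BH3-only protein that links caspases to mitochondria, had its junction 1042 bases after the stop over an intron of 681 bases, and its alternative ended inside the intron. Diablo, an antagonist of inhibitors of apoptosis, had it at 1195 bases over an intron of 97 bases. Klrc2, an NKG2 receptor of natural killer cells, had it at 156 bases, and Prkcb, a protein kinase C, at 57 bases. Atp2a2, the calcium pump of the endoplasmic reticulum, had it at 1258 bases. Crbn, the substrate receptor cereblon, had it at 242 bases under the protein_coding label. Kcna6, a voltage-gated potassium channel with its 529 codons in 1 exon, had it at 3120 bases over an intron of 26507 bases. Gbp5, an interferon-induced guanylate-binding protein, belonged to the 23 members with another stop codon. Its chosen transcript of 724 codons carried the NMD label with a junction at 415 bases. Of its 3 complete transcripts, 1 had no such junction and used another stop codon.

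A large fraction of members overlapped another gene model behind the stop codon. In 54 members (30.5%) the exons behind the first qualifying junction overlapped exons of another Ensembl gene on the same strand, in 48 of them coding exons. Over the whole 3′ UTR, 50 members (28.2%) covered coding exons of another gene, against 47 other eligible genes (0.233%). The median 3′ UTR was 1182 bases in members and 624 bases in other eligible genes, a difference that the rule itself favours, since it asks for bases behind the stop codon and breaks ties by length. Of the 440 3′ UTR introns of members, 205 (46.6%) had exactly the ends of a coding intron of another gene. In 39 members the coding exons too were shared with another Ensembl gene, and in 23 of these the genes at the 2 ends were different. These 23 models share exons with one gene ahead of the stop codon and with another gene behind it.

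The 5 members with the most junctions all shared coding exons with other genes on both sides of the stop codon. Gm21969, on the plus strand of chromosome 4 (139603186 to 139662691), had 20 junctions up to 3407 bases after the stop. It shared coding exons with Iffo2, 12 of its 3′ UTR introns were coding introns of Aldh4a1 and 2 of Tas1r2. Gm28539, on chromosome 16, also had 20 junctions, and 19 of its 3′ UTR introns were coding introns of Hira, a histone chaperone gene. In Gm38394, 14 of 16 matched Zc3h11a, in Gm28043 14 of 14 matched Cmtr1 (an mRNA cap methyltransferase), and in Gm28036 13 of 13 matched Cpne1. Gm38394 was the only one of the 5 with the protein_coding label, and its 980 codons were shared with Zbed6.

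The farthest last junctions came partly from the same models. They were Gpc2 at 4108 bases, Gm20517 at 4040, Ccbe1 at 3716, Gm38394 at 3630 and Gm21969 at 3407. The Gpc2 member is a gene model distinct from the main Gpc2 gene of the same symbol, and of its 6 3′ UTR introns 4 were coding introns of that gene and 2 of Gal3st4. Ccbe1, a secreted factor of lymphatic development, differed: its 1 junction lay over an intron of 389 bases. The exon behind that junction touched no exon of another gene on its strand. In total 44 of the 54 overlapping members had 2 or more junctions (81.5%), against 21 of the 123 others (17.1%), and 34 of the 54 had a Gm-number symbol (63.0%), against 7 of the 123 (5.69%). Of the 41 members with Gm numbers, 8 had their symbol in the RefSeq gene table (19.5%), against 682 of 941 other eligible genes with Gm numbers (72.5%).

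**Figure D4:**
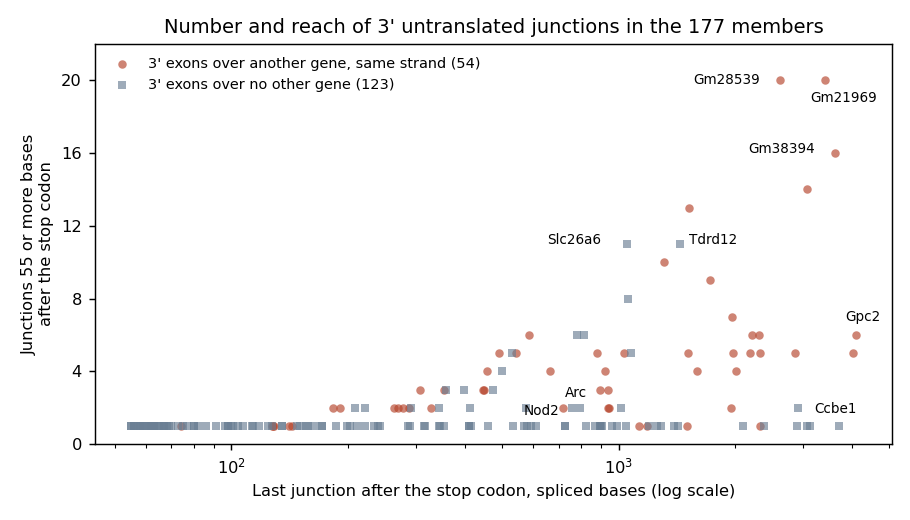
Number of junctions 55 or more bases after the stop codon (vertical axis) against the distance of the last one (horizontal axis, spliced bases, log scale) for the 177 members, in red where the 3′ exons overlap another gene on the same strand (54) and in grey-blue where they do not (123). All members with 12 or more junctions are red; Slc26a6 and Tdrd12, with 11 each, are grey-blue.

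Members with ordinary symbols in this annotation also had 3′ UTR introns that were coding introns of another gene. Of those named here, Arhgdig and Adat3 shared no coding exons of their own with another gene. The Adat3 model was later named Gm49322. In Arhgdig all 9 3′ UTR introns were coding introns of Pdia2, a protein disulphide isomerase. In B4galt2 all 6 were those of Ccdc24 and in Adat3 all 5 those of Scamp4. Mfrp had 1 intron, shared with C1qtnf5, with which it is known to form a bicistronic transcript. Map2k7, a kinase that activates JNK, had 2, shared with Tgfbr3l. The member Trex1, a gene model apart from the main Trex1 gene (a DNA exonuclease), shared its coding exons with Atrip, a partner of the checkpoint kinase ATR, and all 3 of its 3′ UTR introns were coding introns of Atrip. Overlap with exons on the opposite strand was found in 44 members (24.9%), against 1569 other eligible genes (7.78%).

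Most members had a single junction, and most lay within 1000 bases of the stop. Of the 177, 112 had 1 qualifying junction, 65 had 2 or more and 29 had 5 or more, and those 29 held 235 of the 440 introns. The first qualifying junction lay at a median of 161 bases after the stop (95% interval of the median 133 to 208) and the last at 354 bases (263 to 501). The last junction was at a median of 459 bases in NMD-labelled members and 203 bases in protein_coding-labelled members, with overlapping ranges of 55 to 4108 and 55 to 3630 bases. The last exon had a median of 505 bases in members against 1013 bases in other eligible genes. The rule itself favours this difference, since a member's last exon holds no coding bases. The other genes also include the 2243 with a single exon.

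The length of the 3′ UTR introns differed between members that overlap another gene and those that do not. Over all 440 the median was 981 bases (interval 745 to 1183), against 974.5 bases (891 to 1068) for the 1128 coding introns of the same transcripts and 1293 bases (1284 to 1304) for coding introns of other eligible genes. In members with 3′ exons over another gene the median 3′ UTR intron was 679 bases (545 to 885), and in members with none it was 1340 bases (1052 to 1650), where the coding introns had a median of 1033.5 bases (923 to 1168). With protein_coding transcripts only, it was 1294.5 bases in 3′ UTRs and 941 bases in coding sequences. The intervals of these medians count each intron as separate, though 29 members hold 235 of the 440. Within a transcript, the median 3′ UTR intron was longer than the median coding intron in 64 of 152 members (42.1%, 34.5% to 50.1%). The log2 ratio had a median of -0.34 (interval -0.57 to 0.04), which spans 0. Introns under 100 bases made up 54 of 440 in 3′ UTRs of members (12.3%, 9.53% to 15.7%), 90 of 1128 in their coding sequences (7.98%, 6.54% to 9.71%) and 9655 of 166336 in other genes (5.80%). The 3 members with the longest 3′ UTR introns were Gm20696, with 196911 bases over the Foxp1 locus, Pakap with 96878 bases and Rnf26 with 44210 bases. Of these, Rnf26 alone had 3′ exons that overlapped no exon of another gene on its strand.

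**Figure D5:**
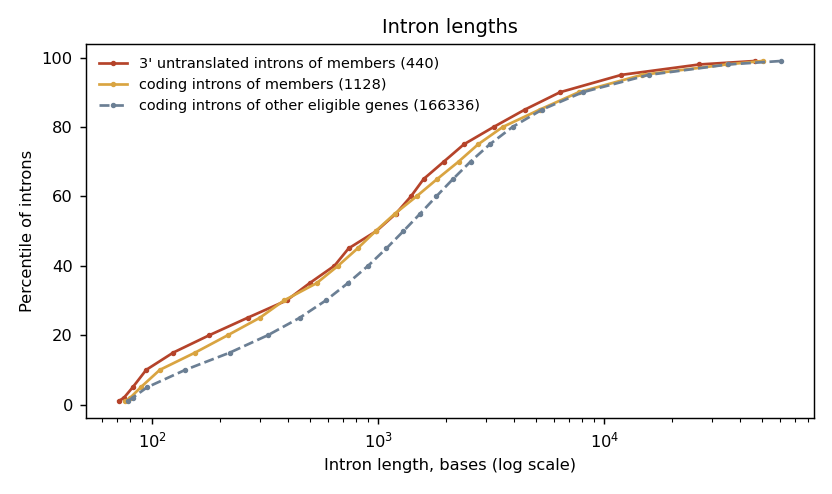
Percentile of introns (vertical axis) by intron length (horizontal axis, bases, log scale) for the 440 3′ UTR introns of members (red), the 1128 coding introns of the same transcripts (yellow) and the 166336 coding introns of other eligible genes (dashed grey-blue). Both curves of members pass close to each other at their medians of 981 and 974.5 bases, left of the 1293 bases of other genes.

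Small RNA genes lay within 3′ UTR introns of 7 members (3.95%). The share for introns of other genes was not computed, so 3.95% cannot be called high or low. Long introns have more room for such genes. Beside Mir6912 and Mir7020, described above, Ddx39 (an RNA helicase of mRNA export) held Mir1668 on the opposite strand, 493 bases before the acceptor. Dyx1c1Ccpg1 held Gm27353, Gm20696 held Gm22328 and Gm24936, and Pakap held Gm24277 and Gm26138. Gm38393, which shares coding exons with Snurf and 3′ exons with Snhg14, held Snord64 on its own strand in an intron of 6316 bases.

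The lists chosen for macrophage and RNA biology held almost no members. Of 220 eligible genes on the 12 lists, 1 was a member (0.455%, interval 0.0803% to 2.53%), beside 0.870% of all eligible genes. There was none among 36 LPS response genes, 22 genes of the LPS receptor pathway, 12 macrophage identity genes, 15 antigen presentation genes or 11 NMD factors. The lists are too short for a count of 0 to be read as a lower share. A junction at any distance after the stop was present in 14 of the 220 list genes, beside 4.42% of all eligible genes. Among the 11 NMD factors there was 1, Upf1, the central NMD helicase, with its last junction 3 bases after the stop. It lay at 42 bases in Casc3, a core protein of the exon junction complex, and at 21 in Myd88, the adaptor of Toll-like receptors. These genes were picked with their values in view.

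Counting any complete transcript, rather than the one with the longest coding sequence, gave many more genes. A junction 55 or more bases after the stop was then found in 2578 eligible genes (12.7%), in 3347 of 3438 complete NMD-labelled transcripts (97.4%) and in 255 of 36533 complete protein_coding transcripts (0.698%). Splicing factors, which are known to carry exons that bring in an early stop codon, were the lists with most such genes, at 6 of 13 SR factors and 13 of 25 hnRNP and related genes. A gene with more complete transcripts is more easily counted in this way, and the lists were not matched for that number. In Srsf3 the transcript with the junction had 124 codons, against 164 in the longest, and in Srsf6 135 against 339. In Srsf2, Hnrnpa2b1 and Hnrnpdl it had the full coding length, of 221, 341 and 420 codons. In the LPS response list 3 of 36 genes (Irf1, Rsad2 and Mx1) had such a transcript, beside 12.7% of all eligible genes. In the receptor pathway 3 of 22 genes had one (Irak3, Ikbkb and Nfkb1). For Irf1 the transcript with the junction encoded 51 codons of 329, with the last junction 158 bases after the stop.

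In gene families named by symbol the counts were small, beside 0.870% over all eligible genes. None was found among 1060 olfactory receptor genes (Olfr), 101 Cyp genes or 76 Rpl and Rps genes, 1 among 356 Slc genes (Slc26a6), 2 among 347 Zfp genes (Zfp41 and Zfp287, 0.576%), 2 among 228 Tmem genes (0.877%) and 1 among 33 H2- genes (H2-M3, 3.03%, interval 0.537% to 15.3%). Apart from the olfactory receptors, whose interval ended at 0.361%, each of these families had an interval that included 0.870%. Genes with a single exon cannot be members but are counted in these shares. Shares among genes with 2 or more exons were not computed by family. Without Gm numbers and Rik clones the share was 124 of 18649 genes (0.665%). By chromosome it ran from 0.400% on chromosome 10 (4 genes) to 1.70% on chromosome 1 (20 of 1179 genes), with intervals of 0.156% to 1.02% on chromosome 10 and 1.10% to 2.61% on chromosome 1.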

How the data were processed

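The deposited file used here is a gene annotation in GTF format of 1544831 lines, whose positions are on mm10, per the submitters' processing notes, which also name TopHat2 2.1.1. The authors deposited positions and labels, and 0 lines carry a value in the score column. The making of the annotation itself was not given in the sources used here. Its 50578 gene models include 46078 from Ensembl.

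Distances were counted in spliced bases from the last base of the stop codon to the base before each exon junction, with Python 3.11.15 and pandas 2.3.3, and were tested on 400 simulated gene models, 4 of them with a split stop codon, of which 400 were recovered. Ties in coding length went to the longest spliced transcript. Overlap meant at least 1 shared base on the stated strand. Shares carry Wilson 95% intervals, which cover counting only, and genes are not replicates, so no test was made between gene classes. Splice sites and miRNAs were read from RefSeq tables of GRCm38.p6. A comparison with RefSeq proteins was not run.

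The members and the 12 gene lists were chosen with earlier results of these data known. The rule for named genes took members on the lists, the 5 with most junctions, the 5 with the farthest last junction, the 3 with the longest 3′ UTR intron, 3 genes on either side of the threshold and members with small RNA genes in their introns, up to 6 by symbol. Any further gene in the text was picked with its values in view. The alternatives were other thresholds, other choices of transcript, sex chromosomes and sets without overlapping or provisional genes.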

Additional observations from a re-analysis of the deposited data

How the results depend on the processing

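No paired analysis was possible because the deposited annotation holds no value per library. The comparison of coding length with RefSeq proteins was not run. The members depend on the distance asked for and on which transcript stands for a gene. The number of genes, 177, became 899 with any junction after the stop codon, 72 with protein_coding transcripts only, 583 with the longest spliced transcript, 2578 with any complete transcript and 83 with every complete transcript. All 72 genes found with protein_coding transcripts only, 166 of the 583, and 109 of 228 with ties broken by the shortest spliced transcript (an alternative chosen after seeing the data) were members, and 45 genes were found in all 4 ways. The share of eligible genes, 0.870%, was 0.678% at a threshold of 100 bases, 4.42% with any junction, 0.355% with protein_coding transcripts only, 2.87% with the longest spliced transcript, 0.665% without Gm and Rik symbols, 0.606% without members whose 3′ exons overlap another gene and 1.12% with the other tie rule. The share with 2 or more junctions, 36.7%, was in the same order 44.9%, 9.01%, 15.3%, 67.8%, 26.6%, 17.1% and 29.4%, and 24.4% with merged-source genes only. The share with the NMD label, 64.4%, was 12.8% with any junction, 0 with protein_coding transcripts only by construction, 87.1% with the longest spliced transcript, 51.2% without overlapping members and 48.2% with the other tie rule. The share with a same-stop transcript without the junction, 40.1%, was 19.2% with any junction, 14.2% with the longest spliced transcript, 57.1% with merged-source genes only, 56.5% without Gm and Rik symbols, 49.6% without overlapping members and 53.9% with the other tie rule. The median distance to the last junction, 354 bases, was 577 at 100 bases, 21 with any junction, 205.5 with protein_coding transcripts only, 593 with the longest spliced transcript and 221 without overlapping members. The median 3′ UTR intron, 981 bases, was 1294.5 with protein_coding transcripts only and 1340 without overlapping members. The median coding intron of the same transcripts, 974.5 bases, was 1224 with any junction, 1217 with the longest spliced transcript and 1443 with the other tie rule. The share with 3′ exons over another gene, 30.5%, was 38.4% at 100 bases, 8.01% with any junction, 6.94% with protein_coding transcripts only, 13.0% with the longest spliced transcript, 11.8% with merged-source genes only, 16.1% without Gm and Rik symbols and 21.5% with the other tie rule. Of 208 values under alternatives, 148 stayed within 1.5 times the count or within the interval of the share or median, and 60 moved. The 208 include 108 counts of members on the gene lists, 96 of them equal to the main count. Most of these list counts were 0 under the main rule, so the 148 overstate how stable the other results are. Where an alternative removes genes, as in the sets without overlapping or provisional genes, the lower number of genes follows from its construction. The cause of the other changes was not tested. No depth applies to gene models, and whether the introns are spliced in macrophages was not analysed here.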

Other observations

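The sex chromosomes were outside the rule. By the same distance, 5 of 903 eligible genes on the X chromosome (0.554%, Wilson 95% interval 0.237% to 1.29%) and 0 of 172 on the Y chromosome had a junction 55 or more bases after the stop codon. The 5 genes were Fam122c, Rp2h, Smim10l2a, Tex13 and Usp27x. The next coding gene on the same strand began a median of 9798.5 bases from the stop codon in members whose 3′ exons overlapped another gene and 50918 bases in the other members, against 44376.5 bases in 20132 other eligible genes.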
